A study of Arabidopsis thaliana with 12 samples.

Results

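The CAP superfamily holds cysteine-rich secreted proteins and takes its name from mammalian cysteine-rich secretory proteins, insect antigen 5 and the plant pathogenesis-related protein PR-1. In Arabidopsis, PR1 is the textbook marker of the salicylic acid branch of immunity, and most of its relatives are known only as members of the family. Yeast CAP proteins bind sterols. The members described here were chosen as probe sets annotated to a single gene whose symbol or locus is on a list of 10 CAP genes related to PR-1. Of these 10, 8 were found, each with 1 probe set, among 22810 probe sets on the array, which name 13350 genes by a single symbol. They are PR-1-LIKE (AT2G19990), AT4G25780, AT1G50060, AT4G33720, AT5G66590, AT5G26130, AT3G09590 and AT3G19690. PR1 (AT2G14610) and PRB1 (AT2G14580) were not analysed here. No individual role is given below for the members that carry only a locus code.

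Transcript levels were measured on Affymetrix arrays in Arabidopsis thaliana (ecotype Columbia), using entire seedlings. The seedlings were 6 days old, grew at 22 °C under 16 h of light and 8 h of dark, and were either wild type or carried sdg8, hub2 or both mutations (sdg8hub2). Each of the 4 groups has 3 arrays, which the labels describe as independently grown biological replicates, and the labels name no allele. SDG8 is a histone H3 lysine methyltransferase. HUB2 acts as an E3 ligase that puts ubiquitin on histone H2B, and both marks are found at transcribed genes. The design sets each mutant against wild type and the double mutant against each single mutant.

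Intensities are the authors' linear values, scaled so that their mean, with 2% trimmed from both ends, is 500.1 on every array. A gene "rose" or "fell" here when its Benjamini-Hochberg adjusted p over 18196 tested probe sets was under 0.05 in a limma fit to all 12 arrays. Probe sets whose mean log2 value was at or below that of 18.56 intensity units were not tested. Pairwise correlations between arrays of a group ran from 0.9387 in sdg8 to 0.965 in wild type. The 3' minus 5' log2 signal of an actin control, a check of RNA integrity, was 2.06 in hub2 replicate 2 and 1.00 to 1.53 on the other 11 arrays. A second actin control set that array apart less, with 3.775 there, 3.668 in sdg8 replicate 2 and 2.084 in hub2 replicate 1. The actin difference named below is that of the first control. Of the tissue markers, 3 of 6 for green tissue (RCA, LHCB4.1 and LHCB4.2) and 1 of 6 for root (the root-hair expansin gene EXPA7) had a named probe set, and no marker of flowers or seeds was named. The summed intensity of the 3 green markers was 42329 to 47631 in wild type, 50504 to 59966 in sdg8, 48786 to 53302 in hub2 and 43811 to 45295 in sdg8hub2. EXPA7 read 226 to 270 in wild type, 154 to 197 in sdg8, 191 to 243 in hub2 and 125 to 216 in sdg8hub2. SDG8 and HUB2 themselves were not analysed here. Each sample is a whole seedling extract, so more cells expressing a gene and more RNA per cell cannot be told apart.

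In sdg8 seedlings, PR-1-LIKE, AT4G25780 and AT1G50060 rose 2.34-, 2.00- and 2.64-fold against wild type. In hub2 seedlings PR-1-LIKE fell 2.30-fold, and the other 6 tested members did not pass the test. In the double mutant PR-1-LIKE and AT1G50060 did not pass the test against wild type, and all 3 genes were lower than in sdg8. Among CAP genes outside the member list, AT2G19970, which lies close to PR-1-LIKE, also rose in sdg8 and fell in hub2. A further 3 CAP genes outside the list fell in sdg8, where 7.86% of all tested probe sets were lower.

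The tissue markers also moved between the groups. In sdg8, RCA (log2 difference 0.30) and LHCB4.1 (0.36) rose, and LHCB4.2 fell by 0.41, with limma adjusted p of 0.0140, 0.00330 and 0.00282. In hub2 LHCB4.2 rose by 0.82 (limma adjusted p = 1.37e-05), and in sdg8hub2 EXPA7 fell by 0.66 (limma adjusted p = 0.0216). With quantile normalization the sdg8 calls of RCA (0.06, adjusted p = 0.553) and LHCB4.1 (0.15, adjusted p = 0.136) were lost. The RCA call was also lost without wild type replicate 1 (adjusted p = 0.0799) or sdg8 replicate 2 (0.0813) or 3 (0.0651), and the EXPA7 call without wild type replicate 2 (0.0528) or 3 (0.0910) or sdg8hub2 replicate 1 (0.118) or 2 (0.0925). The part of these markers in the member differences was not tested.

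PR-1-LIKE stood at 155, 148 and 161 intensity units on the wild-type arrays and at 345, 386 and 355 on those of sdg8. It was at 71.7, 58.3 and 72.3 in hub2 and at 193, 196 and 168 in sdg8hub2. The 4 groups did not overlap, in the order sdg8, sdg8hub2, wild type and hub2 from high to low. On the log2 scale the means were 7.27 ± 0.06 in wild type, 8.50 ± 0.08 in sdg8, 6.07 ± 0.18 in hub2 and 7.54 ± 0.12 in sdg8hub2 (SD, n = 3 in each group).

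Against wild type, PR-1-LIKE rose in sdg8 by a log2 difference of 1.23 (SE 0.17, limma adjusted p = 3.34e-05). In hub2 its log2 difference was -1.20 (SE 0.17, limma adjusted p = 0.000333). In sdg8hub2 it stood 0.27 above wild type, a difference that did not pass (limma adjusted p = 0.333), with an interval from -0.10 to 0.63. The test did not separate sdg8hub2 from wild type, although their arrays did not overlap. Its spread came from all 12 arrays and from an intensity trend of the variance over all tested probe sets.

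Loss of HUB2 went with a lower PR-1-LIKE level in both backgrounds. In the sdg8 background the log2 difference of sdg8hub2 from sdg8 was -0.96 (limma adjusted p = 0.000614), beside -1.20 in wild type. Loss of SDG8 in the hub2 background gave a log2 difference of 1.47 (limma adjusted p = 3.72e-06), beside 1.23 in wild type. The sum of the single-mutant log2 differences was 0.03, and the double mutant was observed at 0.27. The interaction, which is the departure from that sum, was 0.24 with an interval from -0.27 to 0.75 (limma adjusted p = 0.655). Between the single mutants PR-1-LIKE was 5.38-fold higher in sdg8 (limma adjusted p = 2.73e-09). hub2 replicate 2, the array with the high actin difference, gave the lowest PR-1-LIKE value of the 12, and without it the log2 difference of hub2 from wild type was -1.10 (limma adjusted p = 0.00181).

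**Figure D1:**
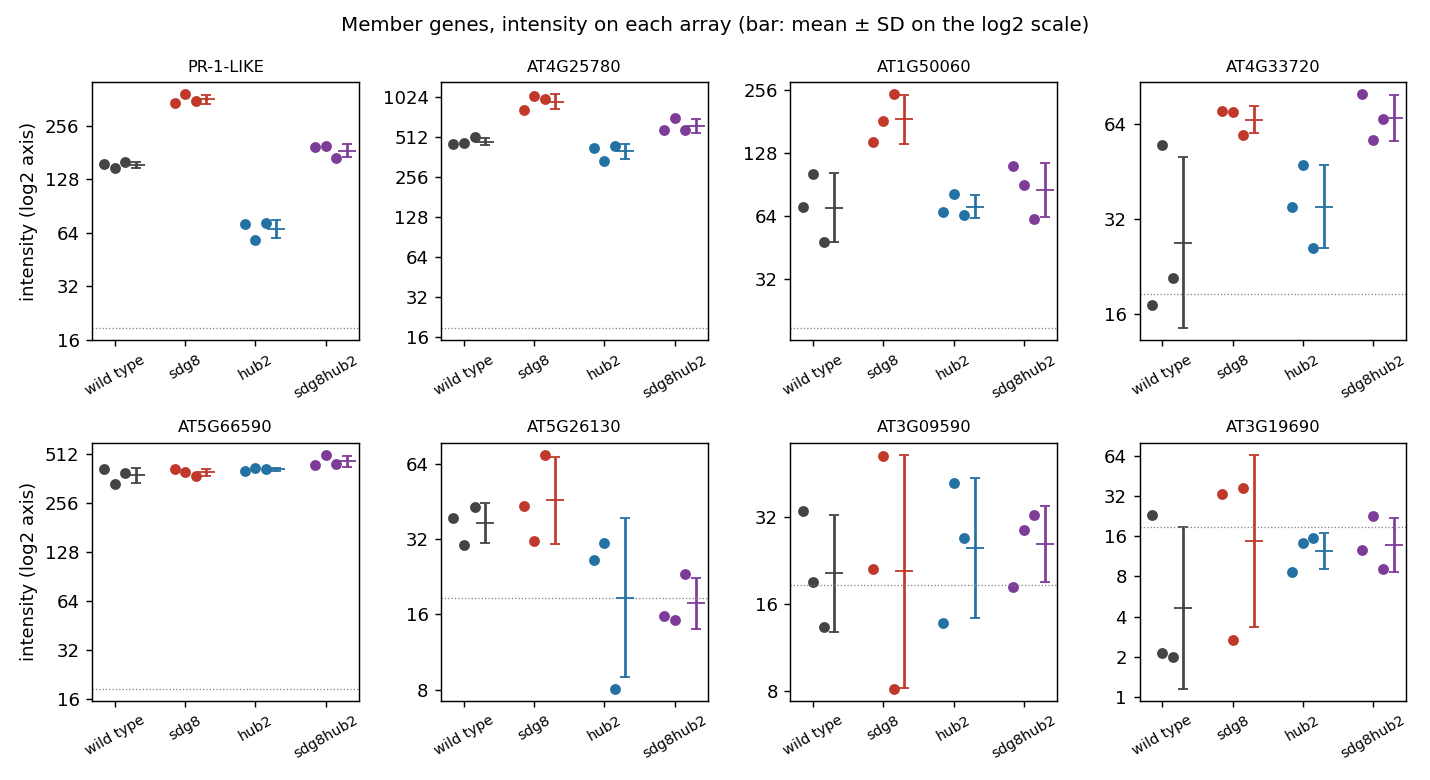
Intensity (log2 axis) of the 8 member probe sets on each array, in wild type, sdg8, hub2 and sdg8hub2, with points for arrays and bars for the mean ± SD on the log2 scale. The PR-1-LIKE arrays of the 4 groups do not overlap, although sdg8hub2 and wild type did not pass the test between them (log2 difference 0.27). AT4G25780 and AT1G50060 are highest in sdg8, and the dotted line marks 18.56 intensity units, the filter on mean log2 values.

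AT4G25780 followed the same order of group means as PR-1-LIKE. Its intensities were 452, 461 and 513 in wild type, 816, 1051 and 995 in sdg8, 428, 341 and 437 in hub2, and 577, 718 and 585 in sdg8hub2. The sdg8 arrays lay above all others, the sdg8hub2 arrays came next, and the hub2 arrays lay just below those of wild type. The log2 difference of sdg8 from wild type was 1.00 (SE 0.13, limma adjusted p = 1.43e-05).

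In hub2 the difference of AT4G25780 was -0.25 with an interval from -0.52 to 0.03 and did not pass (limma adjusted p = 0.396). In sdg8hub2 AT4G25780 was 0.61 lower on the log2 scale than in sdg8 (limma adjusted p = 0.00323) and 0.64 higher than in hub2 (limma adjusted p = 0.00166). Its rise over wild type in the double mutant, a log2 difference of 0.39, passed narrowly (limma adjusted p = 0.0417). That call was lost without wild type replicate 1 (adjusted p = 0.137), 2 (0.114) or 3 (0.0511), without sdg8hub2 replicate 2 (0.203), and without the variance trend (0.101). The interaction was -0.36, with an interval from -0.74 to 0.03 (limma adjusted p = 0.307).

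AT1G50060 rose in sdg8 and was lower in the double mutant than in sdg8. It was measured at 70.5, 102 and 47.9 intensity units in wild type and at 143, 181 and 244 in sdg8. In hub2 it stood at 66.7, 81.7 and 64.5, and in sdg8hub2 at 111, 89.5 and 62.1. The sdg8 arrays did not overlap with those of any other group, and the other 3 groups overlapped among themselves.

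The log2 difference of AT1G50060 in sdg8 was 1.40 (SE 0.31, limma adjusted p = 0.00298). In hub2 it was 0.01, with an interval from -0.63 to 0.65, and in sdg8hub2 0.28, from -0.36 to 0.92, and neither passed. The double mutant was 1.12 below sdg8 on the log2 scale (limma adjusted p = 0.0157). That call was lost without sdg8 replicate 3 (adjusted p = 0.0898) or sdg8hub2 replicate 3 (0.0817). The sum of the single-mutant differences was 1.41. The interaction of -1.13 had an unadjusted p of 0.0162 and did not pass after adjustment (limma adjusted p = 0.134).

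AT4G33720 was dim and its wild-type arrays disagreed. They read 17.1, 54.8 and 20.8 intensity units, against 70.3, 69.6 and 58.8 in sdg8, 34.9, 47.4 and 26.0 in hub2, and 79.5, 56.9 and 66.1 in sdg8hub2. All sdg8 and sdg8hub2 arrays lay above all wild-type and hub2 arrays. The log2 differences from wild type of 1.29 in sdg8 (limma adjusted p = 0.0776) and 1.31 in sdg8hub2 (limma adjusted p = 0.0618) did not pass. Without wild type replicate 2, the high wild-type array, they were 1.81 and 1.82 and passed (limma adjusted p = 0.0219 and 0.0154). In sdg8hub2 the test was also passed with quantile normalization (adjusted p = 0.0398) and with median centring (0.0466). The 2 mutants that carry sdg8 differed by 0.02, with an interval from -0.98 to 1.01.

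The other members gave no call in any comparison. AT5G66590 was the steadiest, at 336 to 416 intensity units in wild type, 375 to 416 in sdg8, 402 to 418 in hub2 and 437 to 506 in sdg8hub2. Its intervals against wild type ran from -0.20 to 0.32 in sdg8 and from -0.14 to 0.38 in hub2. In sdg8hub2 all 3 arrays lay above the highest wild-type array, with a log2 difference of 0.28 that did not pass (limma adjusted p = 0.122).

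AT5G26130 and AT3G09590 lay close to the filter value, so their differences were poorly determined. AT5G26130 read 30.2 to 43.1 in wild type, 31.5 to 69.5 in sdg8, 8.04 to 30.7 in hub2 and 15.2 to 23.1 in sdg8hub2. Its sdg8hub2 arrays lay below all wild-type arrays, with a log2 difference of -1.07 and an interval from -2.53 to 0.40. AT3G09590 ranged from 8.14 to 51.8 over the 12 arrays, with both extremes in sdg8. AT3G19690 lay below the filter and was not tested, at 2.00 to 23.1 in wild type, 2.68 to 36.7 in sdg8, 8.62 to 15.4 in hub2 and 9.05 to 22.6 in sdg8hub2.

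**Figure D2:**
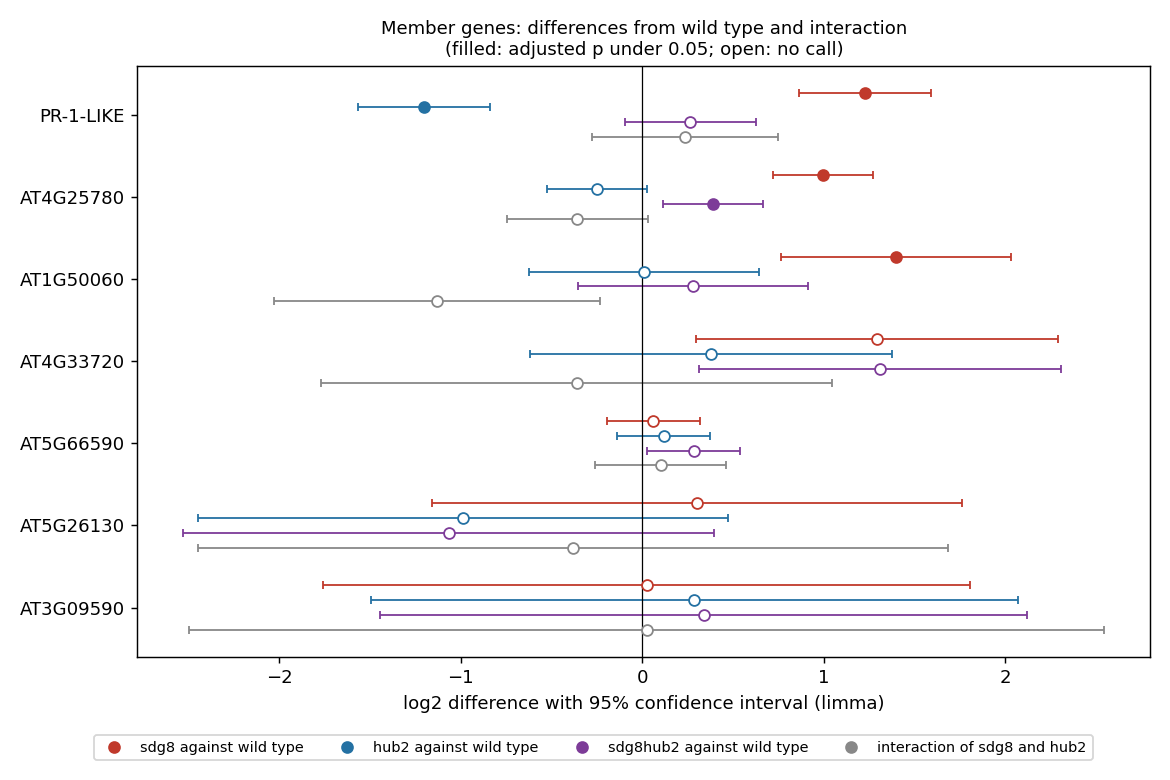
Log2 differences with 95% confidence intervals of the 7 tested members, for each mutant against wild type and for the interaction, with filled points where the limma adjusted p was under 0.05. PR-1-LIKE lies at 1.23 in sdg8 and -1.20 in hub2, and every interaction interval except that of AT1G50060 includes 0.

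Counted over the 8 members in sdg8, 3 rose, 4 did not pass and 1 was not tested, where 14.3% of all tested probe sets were called and 6.41% were higher. In hub2 1 fell and 6 did not pass, where 2.85% of all were called and 1.46% were lower. In sdg8hub2 1 rose and 6 did not pass, where 18.5% were called and 8.01% were higher. Against sdg8 the double mutant was lower in 3 members, where 14.4% of all were called and 7.72% were lower. Against hub2 it was higher in 2, where 17.0% of all were called and 7.17% were higher. Between the single mutants 3 were higher in sdg8, where 16.1% of all were called and 7.34% were higher. In the interaction limma called 0 of 7 members (1 at an unadjusted p under 0.05), where 6.46% of all were called.

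The median log2 difference of the 7 tested members was 1.00 in sdg8, 0.01 in hub2 and 0.28 in sdg8hub2. Over all tested probe sets the medians were -0.024, 0 and -0.051. These counts and medians describe a list of 7, chosen with earlier results of these data known, and leave out AT3G19690.

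The wider family did not move one way. A list of 12 further CAP loci yielded 11 probe sets, so that 19 CAP genes were measured and 13 tested. In sdg8, 4 of the 13 rose, 3 fell and 6 did not pass, where 7.86% of all tested probe sets were lower. In hub2 3 fell and 10 did not pass, where 1.46% of all were lower. In sdg8hub2 1 rose, 3 fell and 9 did not pass, where 10.5% of all were lower. The genes that fell in sdg8 were AT4G33730, AT4G30320 and AT4G25790.

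Several CAP genes lie side by side, by the gene order of the RefSeq annotation. AT2G19970, AT2G19980 and PR-1-LIKE follow one another on chromosome 2 with 0 annotated genes between neighbours. AT2G19970 read 1212, 913 and 821 intensity units in wild type, 2746, 2167 and 2769 in sdg8, 566, 588 and 545 in hub2, and 791, 758 and 782 in sdg8hub2. Its groups did not overlap, and the double mutant lay between hub2 and wild type, whereas that of PR-1-LIKE lay between wild type and sdg8.

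AT2G19970 rose in sdg8 by 1.39 on the log2 scale (limma adjusted p = 7.00e-08) and had a log2 difference of -0.78 in hub2 (limma adjusted p = 0.000952, or 0.0540 without the variance trend). In sdg8hub2 the difference of -0.32 from wild type did not pass (limma adjusted p = 0.0844), but did without wild type replicate 3 (-0.44, adjusted p = 0.0300). Against sdg8 the double mutant stood at -1.71 (limma adjusted p = 5.40e-09). The sum of the single-mutant differences was 0.62, and the interaction of -0.94 passed (limma adjusted p = 0.00203). Whether the interactions of AT2G19970 and PR-1-LIKE differ was not tested. AT2G19980, the gene between them, read 2.05 to 25.1 intensity units over the 12 arrays, below the filter.

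On chromosome 4, AT4G25780 and its direct neighbour AT4G25790 changed in opposite directions in sdg8. AT4G25790 read 104, 178 and 105 in wild type and 49.9, 75.3 and 24.3 in sdg8, without overlap. It read 115, 71.3 and 91.8 in hub2 and 68.1, 37.8 and 116 in sdg8hub2, and both of these groups overlapped with wild type. The fall in sdg8 had a log2 difference of -1.47 (SE 0.42, limma adjusted p = 0.0202), beside 1.00 for AT4G25780. Leaving out wild type replicate 2 ended that call (adjusted p = 0.120), as did leaving out sdg8 replicate 3 (0.110) or the variance trend (0.0895).

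**Figure D3:**
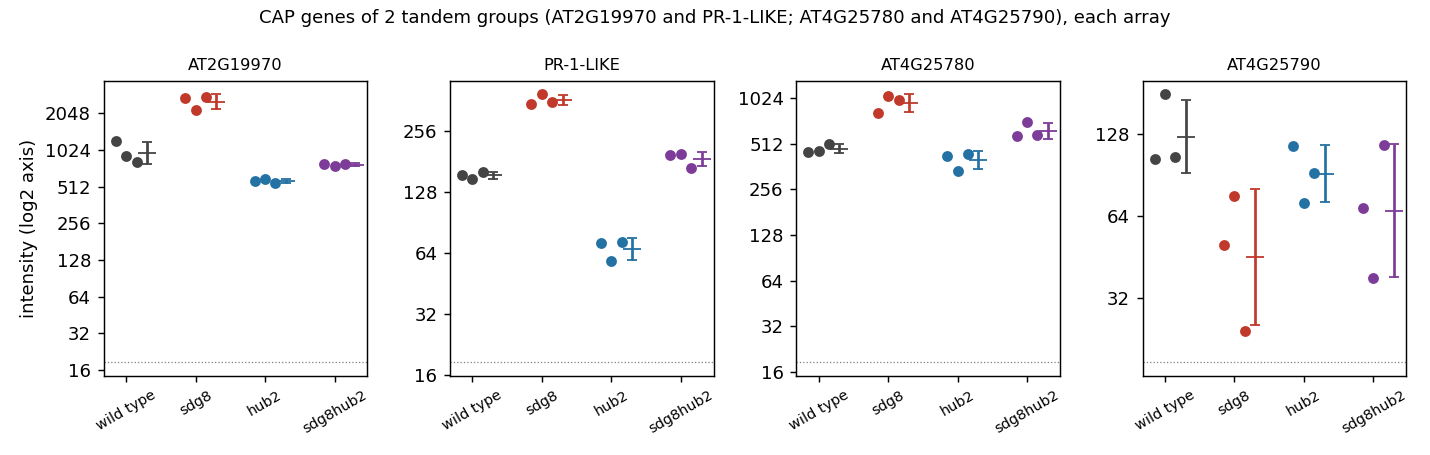
Intensity (log2 axis) on each array of AT2G19970 and PR-1-LIKE of chromosome 2 and of the neighbours AT4G25780 and AT4G25790 of chromosome 4, with bars for the mean ± SD on the log2 scale and a dotted line at the filter value. In sdg8 the first 3 genes lie above wild type and AT4G25790 lies below it.

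A further run on chromosome 4 holds AT4G33710, AT4G33720 and AT4G33730, with 0 annotated genes between neighbours. AT4G33730 read 147, 158 and 172 in wild type, 64.1, 24.0 and 52.6 in sdg8, 103, 114 and 89.4 in hub2, and 41.8, 71.9 and 51.4 in sdg8hub2. Every mutant array lay below every wild-type array. It fell in sdg8 by 1.88 on the log2 scale (limma adjusted p = 0.000541) and in sdg8hub2 by 1.57 (limma adjusted p = 0.00214). In hub2 the difference of -0.64 did not pass (limma adjusted p = 0.392). Its neighbour AT4G33720, described above, had values on the other side of wild type in both lines with sdg8. AT4G33710 was below the filter, at 2.50 to 70.0 over the 12 arrays, as was AT1G50050, which precedes AT1G50060 among protein-coding genes of chromosome 1.

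Of the CAP genes without a measured direct neighbour, AT4G30320 fell in sdg8 (log2 difference -1.19, limma adjusted p = 0.00260) and in sdg8hub2 (-0.94, limma adjusted p = 0.0122). The sdg8hub2 call was lost without wild type replicate 2 (adjusted p = 0.0529) or sdg8hub2 replicate 3 (0.0667). AT4G07820 fell in hub2 by 1.00 on the log2 scale (limma adjusted p = 0.00388, or 0.0574 without the variance trend), and in sdg8hub2, with -0.71 (limma adjusted p = 0.0102). In sdg8hub2 that call was lost without wild type replicate 1 (adjusted p = 0.0507) or sdg8hub2 replicate 2 (0.0675). Its lowest value, 121 intensity units, came from hub2 replicate 2, the array with the high actin difference. With that difference as a covariate the log2 difference of AT4G07820 in hub2 was -0.68 and did not pass (limma adjusted p = 0.0687). AT4G31470 passed no test in the 7 comparisons.

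**Figure D4:**
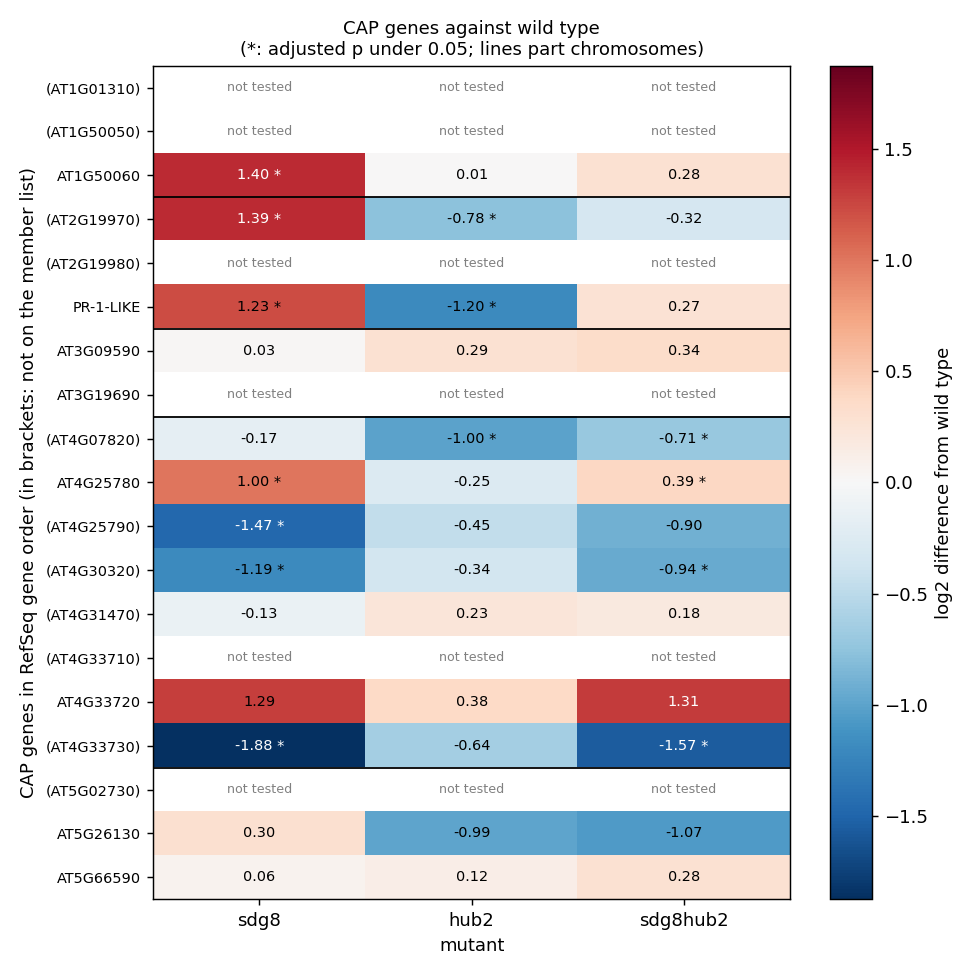
Log2 differences from wild type in sdg8, hub2 and sdg8hub2 (columns, coloured from blue for lower to red for higher) of the 19 measured CAP genes in RefSeq gene order (rows), with asterisks at a limma adjusted p under 0.05. Genes below the filter have no colour or value and are marked as not tested. In sdg8, AT4G25790 at -1.47 lies beside AT4G25780 at 1.00, and AT4G33730 at -1.88 lies beside AT4G33720 at 1.29, which did not pass.

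Likeness to the members was measured as Pearson's r of log2 values over the 12 arrays, among 10229 other tested probe sets with a single symbol. It is a description of arrays that share groups and scaling. The genes most like PR-1-LIKE were AT5G07870 (r = 0.967), AT1G47400 (r = 0.953) and AT3G56360 (r = 0.951). Each had the order sdg8, sdg8hub2, wild type and hub2 of the group means, which picking them by correlation with PR-1-LIKE favours. Most like AT4G25780 were BHLH101, which encodes an iron-deficiency transcription factor (r = 0.974), AT3G49910 (r = 0.969) and AT2G38730 (r = 0.967). Most like AT1G50060 were AT1G27690 (r = 0.916), AT5G12940 (r = 0.914) and AT5G47390 (r = 0.914). Between CAP genes the highest r was 0.928, for AT4G25780 and PR-1-LIKE, and AT2G19970 and PR-1-LIKE had 0.878. In the ranking for AT4G25780, PR-1-LIKE stood at place 21. The lowest r between CAP genes was -0.745, for AT4G25780 and AT4G33730.

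Few genes of a list drawn up for salicylic acid synthesis and signalling were named in the annotation, 3 of 31, and 2 of them were tested. AT5G52810 is on that list as SARD4, whose enzyme acts in the synthesis of pipecolic acid. It fell in sdg8 by 0.75 and in sdg8hub2 by 0.68 on the log2 scale (limma adjusted p = 0.00389 and 0.00622). SAG101, which encodes a partner of the immune regulator EDS1, did not pass in sdg8 at -0.90 (limma adjusted p = 0.109) and was 1.23 higher in sdg8hub2 than in sdg8 (limma adjusted p = 0.0259). That SAG101 call was lost without sdg8 replicate 3 (adjusted p = 0.0724), without sdg8hub2 replicate 2 (0.173), with no filter (0.0546) and in a fit of the compared groups alone (0.0830). The AT5G52810 call in sdg8hub2 was lost without the variance trend (0.0545). In hub2 neither gene passed.

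Of 12 genes for other pathogenesis-related proteins, 7 had a named probe set and 6 were tested. This list was chosen with earlier results of these data known. The PDF1.2b probe set carries the suffix _x_at, given to sets whose probes may also match other transcripts. Whether its signal is separate from that of PDF1.2 was not tested. In sdg8, 3 fell, namely AT2G43620 and CHI of the chitinase family, at log2 differences of -2.89 and -2.20, and the defensin gene PDF1.2b (-0.69), and 3 did not pass, where 7.86% of all tested probe sets were lower. In hub2 PDF1.2 and PDF1.2b rose by 1.53 and 1.41, AT2G43620 fell by 0.97, and CHI fell by 1.00, where 1.40% of all were higher and 1.46% were lower. In sdg8hub2 5 of the 6 fell, with PDF1.2 at -1.48, PDF1.2b at -1.33, AT2G43620 at -1.77, CHI at -0.78 and AT2G43590 at -0.47, where 10.5% of all were lower. The CHI call in hub2 (limma adjusted p = 0.0362) was lost on leaving out any single array of either group (adjusted p from 0.0710 to 0.134) and with the actin difference as a covariate (0.201). That in sdg8hub2 (0.0363) was lost without any of the wild-type arrays or without sdg8hub2 replicate 1 or 2 (0.0662 to 0.208). The PDF1.2b call in sdg8 (0.0250) was lost without any of the wild-type arrays or without sdg8 replicate 2 or 3 (0.0527 to 0.0985). Without the variance trend the CHI calls in hub2 and sdg8hub2 and this PDF1.2b call were lost (0.124, 0.0687 and 0.132). With no filter both CHI calls were lost (0.079 and 0.0766). The CHI call in sdg8hub2 was also lost with quantile normalization (0.064), median centring (0.0563) and the actin difference as a covariate (0.0559).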

How the data were processed

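The authors deposited 1 column of linear intensities for each of 12 arrays. MAS5 and affy are the tools listed, per the submitters' processing notes, with versions not given in the sources used here. Per the labels' protocols an Affymetrix kit was used for labelling, while another field names Agilent's instructions. Scanner files and calls of presence were not used. The number of arrays limits the precision.

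Values were raised to a floor of 1.179 intensity units (the 1st percentile) and taken as log2. Of 22810 probe sets, 64 controls were left out, and 18196 with a mean log2 above the 20th percentile were tested. Limma 3.58.1 under R 4.3.3 was fitted with a mean per group and an intensity trend of the variance, over 7 two-sided comparisons. The procedure was tested on simulated data. Names came from the supplied platform annotation, matched by gene identifier to a RefSeq table of TAIR10.1 (13436 of 13513 single-symbol probe sets). All 10 listed genes were to be named, with genes of the 3 further lists where called. Likeness was ranked for PR-1-LIKE and each called member, taking the 3 highest correlations. The members and lists were chosen with earlier results of these data known. Samples of the same replicate number did not deviate together (0 of 18 pairs had a correlation over 0.1), so no pairing was used.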

Additional observations from a re-analysis of the deposited data

Results flagged for a closer look

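By limma's interaction term, the log2 difference that goes with hub2 differed between sdg8 and wild type backgrounds for 9 of the 25 listed genes tested. Of all tested probe sets, 6.46% were called. The lists were chosen with earlier results of these data known, so setting these shares side by side is no test of the lists. Of the 7 tested members, 0 were called. PDF1.2 and PDF1.2b may not be separate calls, because the PDF1.2b probe set may also read other transcripts. For the CAP gene AT2G19970 the interaction was -0.94 (adjusted p = 0.00203), with -0.78 in wild type and -1.71 in sdg8. Among other pathogenesis-related protein genes it was -2.48 for PDF1.2 (adjusted p = 3.62e-06), -2.06 for PDF1.2b (adjusted p = 7.92e-05), 2.09 for AT2G43620 (adjusted p = 1.97e-06), 2.42 for CHI (adjusted p = 0.000193) and -0.64 for AT2G43590 (adjusted p = 0.00985, or 0.0722 without the variance trend). Among the green-tissue markers it was -0.40 for RCA (adjusted p = 0.0377), -0.47 for LHCB4.1 (adjusted p = 0.0151) and -0.57 for LHCB4.2 (adjusted p = 0.00830). The RCA call was lost when any of 10 single arrays was left out (adjusted p from 0.0522 to 0.103). The LHCB4.1 call was lost without wild type replicate 1 or hub2 replicate 1 (0.0545 and 0.0501). Without the variance trend all 3 marker calls were lost (0.163, 0.109 and 0.0711). With quantile normalization the interactions of RCA (-0.07, adjusted p = 0.716) and LHCB4.1 (-0.21, adjusted p = 0.18) did not pass. Both calls were also lost with median centring (0.162 and 0.102) and with no filter (0.153 and 0.0718).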

How the results depend on the processing

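Of 49 member differences tested, 13 were called, and 11 of these kept their call and direction under every alternative that could be run. The exceptions were AT4G25780 in sdg8hub2 against wild type and AT1G50060 in sdg8hub2 against sdg8. The dim members were not tested with a filter at the 50th percentile. The count of members called in sdg8hub2 against wild type was 1, became 2 with quantile normalization and 2 with median centring, and was 0 by limma without the variance trend (the cause was not tested). It ran from 0 to 1 with single arrays left out. With the replicate block the counts were 3 in sdg8, 1 in hub2 and 1 in sdg8hub2 against wild type, 3 against sdg8, 2 against hub2, 3 between the single mutants and 0 for the interaction, so the block moved no count. Over all probe sets, the 519 calls in hub2 became 127 without the variance trend, 341 with median centring and 233 with the actin difference as a covariate, an alternative chosen after the data were seen. Leaving out wild type replicate 1, 2 or 3 gave 210, 294 or 247 calls, and leaving out hub2 replicate 2 or 3 gave 332 or 338. The 1175 interaction calls became 530 without the trend. Median centring moved the share of higher among all calls from 44.9% to 56.5% in sdg8, from 43.3% to 57.4% in sdg8hub2, from 42.1% to 59.2% in sdg8hub2 against hub2 and from 45.7% to 59.2% between the single mutants. Without detection calls, signal near the filter value limits AT5G26130, AT3G09590, AT3G19690 and AT4G33720.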
